A study of Mus musculus with 6 samples.

Results

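The genes described here are 9 cytokine and growth factor receptor genes, taken by their symbols from the 31253 features of the count tables: Il7r, Il2rb, Il2rg, Il18r1, Il18rap, Kit, Flt3, Csf1r and Csf2rb. They were measured by single-cell RNA sequencing in mouse bone marrow sorted by flow cytometry, with 3 samples from wild-type (WT) and 3 from Txnip knock-out (Txnip-KO) marrow. Txnip encodes a thioredoxin-interacting protein that restrains glucose uptake. The labels give the tissue and the genotype of each sample. They do not describe the deleted stretch of Txnip or the cells that lack it, nor state that each sample is its own animal, and strain and age are not used here. The p-values therefore rest on sample-to-sample spread that may be technical. Which population was sorted is likewise not named, and a sort on Kit, Flt3 or Il7r protein would shape the levels of those genes in all 6 samples.

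Cytokine receptors of this group signal in 3 ways. The IL-7 receptor alpha chain (Il7r) and the IL-2 receptor beta chain (Il2rb) pair with the common gamma chain (Il2rg) and act through JAK kinases and STAT5, which lymphoid progenitors, innate lymphoid cells, natural killer (NK) cells and T cells need for survival. The chains Il18r1 and Il18rap together bind IL-18 and act through MyD88, while Kit, Flt3 and Csf1r are receptor tyrosine kinases that bind stem cell factor, FLT3 ligand and CSF1 and mark, in that order, stem and early myeloid cells and mast cells, lymphoid and dendritic progenitors, and monocytes. Csf2rb is the beta chain shared by the receptors for IL-3, IL-5 and GM-CSF, and serves basophils, mast cells and myeloid progenitors.

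The 6 samples hold 48277 barcodes, of which 41513 were kept as single cells, with a median of 9010 ± 145 UMIs per cell in WT and 7651 ± 647 in Txnip-KO (SD, n = 3). A UMI (unique molecular identifier) stands for 1 captured transcript. Of 48051 distinct barcodes, 225 occurred in more than 1 sample. Levels are in CPM, the UMIs of a gene among 1000000 UMIs of the sample or cell type. Txnip itself had 305, 209 and 269 CPM in the kept cells of WT 1, 2 and 3, and 10.8, 9.60 and 0.459 CPM in Txnip-KO 1, 2 and 3. Every Txnip-KO sample lay below every WT sample in each of the 15 cell types compared. Cells were assigned to types by markers that exclude the 9 receptors, and 26997 cells (65.0%) fell into the 15 types with at least 20 cells in every sample. Kept cells fell into these types at a rate of 69.1% ± 0.314 in WT and 61.6% ± 5.65 in Txnip-KO, and 17.5% of the assigned cells lay near a limit of the assignment. That share was 48.9% in cells gated as haematopoietic stem cells, 49.6% in lymphoid-primed progenitors, 37.1% in granulocyte-monocyte progenitors and 35.2% in group 2 innate lymphoid cells, against 3.50% in natural killer cells. No cluster was named conventional dendritic: cells of that gate held a median of 6 of their own markers and 5 monocyte markers, and 381 of 614 lay in monocyte clusters. T cell-gated cells held a median of 6 T cell and 6 natural killer markers. Of the cells gated as haematopoietic stem cells, 51.4% lay in the cluster of that name.

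Levels below are counts summed over the cells of a type in a sample and given as CPM of that sum. A lower value can mean fewer expressing cells or less RNA in each cell, which such sums cannot tell apart. Fold changes are Txnip-KO over WT on the log2 scale with the standard error (SE) and a Benjamini-Hochberg adjusted p from edgeR's quasi-likelihood test over all genes of the type, and "called" means an adjusted p below 0.05.

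Each receptor had its own ranking of cell types in WT cells. Il7r was highest in cells gated as group 2 innate lymphoid cells, Il2rb in NK-gated cells, Kit in cells gated as haematopoietic stem cells (HSC), Flt3 in cells gated as lymphoid-primed progenitors, Csf1r in monocyte-gated cells, and Csf2rb and Il18rap in cells gated as basophils or mast cells. Erythroid-gated cells are known for Kit but not for the lymphoid and myeloid receptors, and held few UMIs of those, at 1.33 ± 0.400 CPM for Il7r, 0.446 ± 0.190 CPM for Il2rb, 0.461 ± 0.0747 CPM for Csf1r and 1.31 ± 0.207 CPM for Csf2rb (SD, n = 3). Kit and Il2rg stood higher in them, at 210 ± 22.1 and 17.8 ± 1.22 CPM.

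**Figure D1:**
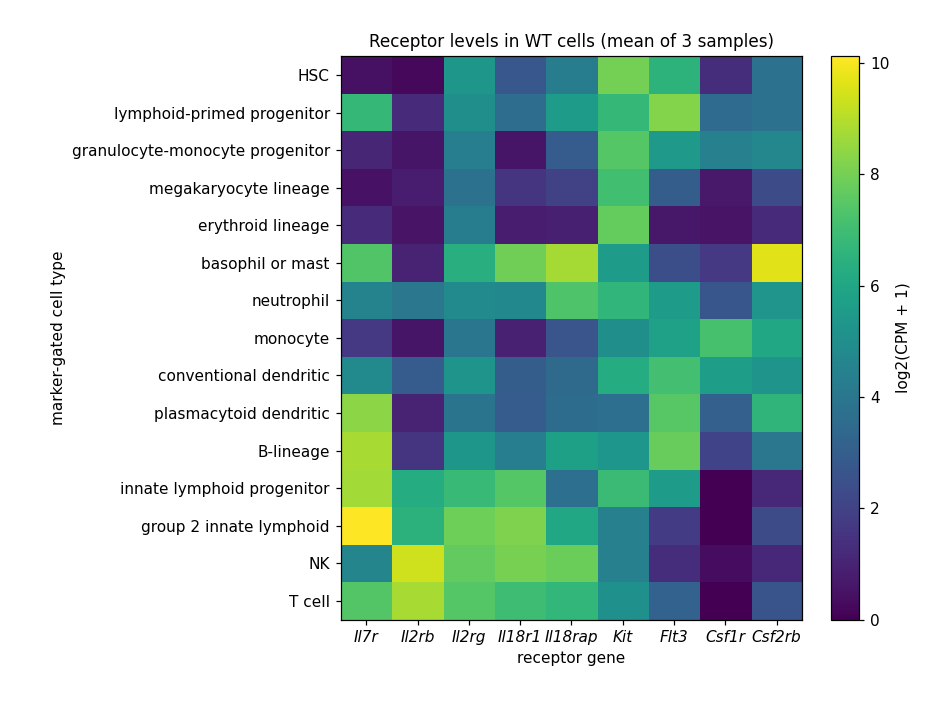
Colour shows log2(CPM + 1), the mean over 3 WT samples, for 9 receptor genes (columns) in 15 marker-gated cell types (rows). Il7r in group 2 innate lymphoid-gated cells (1110 CPM) and Csf2rb in basophil or mast-gated cells (806 CPM) are the brightest cells of their columns, and Csf1r is above 100 CPM only in monocyte-gated cells.

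Of 135 pairs of a receptor and a cell type, 96 had enough counts to be tested, and 42 of these (43.8%) were called, 40 higher and 2 lower in Txnip-KO. Over all genes and types, 20.5% of the tests were called in either direction. The members were chosen with earlier results of these data known, so the 2 shares are a description. The calls include pairs that could be tested only through the Txnip-KO samples, in which the gene was higher. These were Flt3 in basophil or mast-gated and erythroid-gated cells and Il18rap in conventional dendritic-gated cells. By direction, the calls over all genes leaned most to rises in innate lymphoid progenitor-gated cells (64 higher, 36 lower). They leaned most to falls in conventional dendritic-gated cells (275 higher, 357 lower). The share of called genes differed widely between types, so the members' counts are read against it type by type. In lymphoid-primed progenitor-gated cells 5 of 8 tested receptors were called, against 28.8% of all genes, and in plasmacytoid dendritic-gated cells 5 of 8, against 31.2%. Basophil or mast-gated cells had 4 of 7 called (19.1% of all genes), cells gated as granulocyte-monocyte progenitors 4 of 6 (26.4%) and HSC-gated cells 3 of 6 (22.4%).

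In 3 lymphoid types few genes were called in all. T cell-gated cells had 3 of 5 receptors called against 2.17% of all genes, group 2 innate lymphoid-gated cells 3 of 6 against 3.65%, and innate lymphoid progenitor-gated cells 2 of 7 against 1.59%. In NK-gated cells 3 of 7 were called (27.6% of all genes), and in B-lineage-gated cells 1 of 7 (15.6%). Among the other types, 3 of 7 were called in erythroid-gated cells (32.0%), 2 of 5 in megakaryocyte-gated cells (25.8%), 2 of 6 in monocyte-gated cells (22.3%) and 2 of 8 in conventional dendritic-gated cells (8.14%). Neutrophil-gated cells had 0 of 3 called by edgeR, against 1.25% of all genes, with 1 at an unadjusted p below 0.05 and 0 called by DESeq2. This type held 25 to 328 cells in the Txnip-KO samples.

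**Figure D2:**
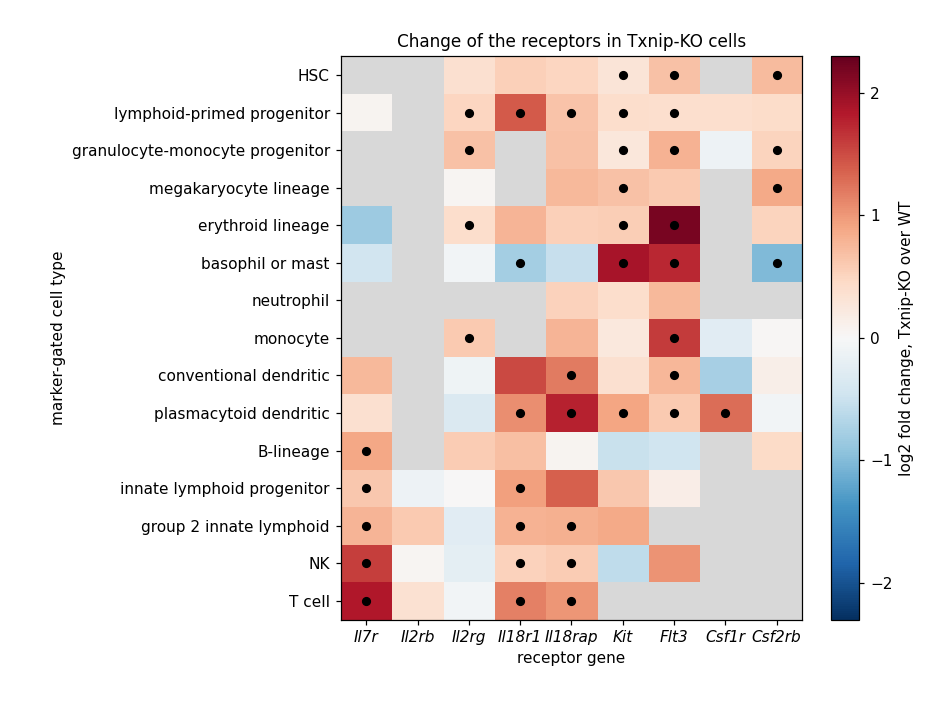
Colour shows the log2 fold change of Txnip-KO over WT (n = 3 each) for each receptor and cell type, black dots mark an adjusted p below 0.05, and grey marks pairs too low to test. The dots sit on 40 rises and 2 falls, and both falls, of Il18r1 and Csf2rb, are in basophil or mast-gated cells.

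Il7r (chromosome 15, 9505788 to 9530176, minus strand, GRCm38) encodes the chain that binds IL-7 and, with Crlf2, TSLP. In WT cells its level was 1110 ± 68.6 CPM in group 2 innate lymphoid-gated cells, 437 ± 47.4 CPM in B-lineage-gated cells and 423 ± 11.8 CPM in innate lymphoid progenitor-gated cells (SD, n = 3). The last pair overlapped. Plasmacytoid dendritic-gated cells followed at 327 ± 36.9 CPM, then T cell-gated and basophil or mast-gated cells at 168 ± 63.4 and 164 ± 11.3 CPM, which also overlapped. NK-gated cells held 23.2 ± 1.17 CPM, and HSC-gated, megakaryocyte-gated and granulocyte-monocyte progenitor-gated cells were at or near the erythroid level.

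Il7r was called higher in Txnip-KO in 5 lymphoid types. In group 2 innate lymphoid-gated cells the WT samples stood at 1032, 1162 and 1136 CPM and the Txnip-KO samples at 2393, 1856 and 1776 CPM (log2 0.78, SE 0.11, adjusted p = 0.000109). In T cell-gated cells the values were 237, 154 and 112 CPM in WT and 536, 478 and 769 CPM in Txnip-KO, a change of 1.83 (SE 0.23, adjusted p = 0.000721), in a gate with as many NK as T cell markers. In NK-gated cells they were 22.4, 22.7 and 24.6 CPM in WT and 69.0, 83.9 and 83.0 CPM in Txnip-KO, a change of 1.59 (SE 0.12, adjusted p = 4.37e-07). The groups did not overlap in any of these types. The share of NK-gated cells with an Il7r UMI, after thinning each cell to 2000 UMIs, was 3.12% ± 0.0764 in WT and 6.67% ± 1.15 in Txnip-KO, against 0.230% ± 0.135 and 0.154% ± 0.134 of erythroid-gated cells. Without thinning the NK-gated shares were 4.65% ± 0.357 and 8.33% ± 0.901, at median depths of 4376 and 3340 UMIs, against 13919 and 11278 in erythroid-gated cells.

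The rise of Il7r was also called in B-lineage-gated cells, from 442, 482 and 388 CPM in WT to 973, 836 and 740 CPM in Txnip-KO (log2 0.90, SE 0.15, adjusted p = 0.0101). It was called in innate lymphoid progenitor-gated cells too, from 410, 434 and 425 CPM to 673, 789 and 537 CPM (log2 0.62, SE 0.14, adjusted p = 0.0183). The B-lineage gate differed in make-up between the groups. In it, 1 cell cluster held 27.6% ± 3.34 of the WT cells and 67.2% ± 30.6 of the Txnip-KO cells, the median depth was 9570 UMIs in WT and 4378 in Txnip-KO, and the 10 B-lineage markers, all detected, summed to 4965 ± 173 CPM in WT and 10428 ± 4270 CPM in Txnip-KO. In plasmacytoid dendritic-gated (0.36, adjusted p = 0.101), basophil or mast-gated (-0.45, adjusted p = 0.238) and lymphoid-primed progenitor-gated cells (0.07, adjusted p = 0.751) Il7r did not pass the test.

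The Il7r calls in NK-gated, T cell-gated and group 2 innate lymphoid-gated cells held under all 18 alternative settings run for each. The make-up of 2 of these gates differed between the groups. In the NK gate 1 cluster went from 78.3% ± 3.11 of WT to 51.6% ± 3.55 of Txnip-KO cells and another from 18.5% ± 3.57 to 45.2% ± 4.52. In the T cell gate 1 cluster went from 58.3% ± 26.6 to 83.3% ± 3.06 and another from 28.8% ± 23.0 to 5.04% ± 1.15. With equal cell numbers per cluster the Il7r change was 1.64 (adjusted p = 5.29e-09) in NK-gated and 1.24 (adjusted p = 0.0342) in T cell-gated cells. The B-lineage call ended without WT 1 (0.88, adjusted p = 0.0592), without WT 2 (0.95, adjusted p = 0.0679) and without WT 3 (0.82, adjusted p = 0.0780). With equal cell numbers per cluster the B-lineage value was 0.98 (adjusted p = 0.00118). The innate lymphoid progenitor call ended without WT 1, WT 2, WT 3 or Txnip-KO 2, at values of 0.47 to 0.62, and with equal cell numbers per cluster (0.58, adjusted p = 0.0660) or in thinned cells (0.74, adjusted p = 0.0948).

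Over all kept cells Il7r stood at 84.1, 90.6 and 97.5 CPM in WT, against 80.9, 94.2 and 91.2 CPM in Txnip-KO, with overlapping groups, and did not pass the test (log2 -0.13, SE 0.10, adjusted p = 0.332). When every sample gave equally many cells of each type the value was 0.57 (adjusted p = 0.000744). That fit used 2722 cells per sample and left out all cells outside the 15 types. B-lineage-gated cells made up 4.98% ± 0.374 of WT and 2.302% ± 0.574 of Txnip-KO cells kept, and plasmacytoid dendritic-gated cells 7.49% ± 1.31 and 3.63% ± 0.658, whose part in the value was not tested beyond that fit.

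Il2rb (chromosome 15, 78479256 to 78495271, minus strand), the chain that IL-2 and IL-15 receptors share, was found in few types. It stood at 674 ± 27.1 CPM in WT NK-gated cells and 447 ± 92.7 CPM in T cell-gated cells, then at 90.8 ± 28.4 and 76.8 ± 24.3 CPM in group 2 innate lymphoid-gated and innate lymphoid progenitor-gated cells, which overlapped. Every other type had a mean of 15.3 CPM or below. In edgeR's test 0 of 4 testable types gave a call, with 1 at an unadjusted p below 0.05 and 0 called by DESeq2. In NK-gated cells the samples stood at 696, 683 and 644 CPM in WT, against 889, 766 and 675 CPM in Txnip-KO, with overlapping groups (log2 0.04, SE 0.10, adjusted p = 0.787). The values were 0.35 (SE 0.18, adjusted p = 0.331) in T cell-gated, 0.60 (SE 0.24, adjusted p = 0.166) in group 2 innate lymphoid-gated and -0.12 (SE 0.24, adjusted p = 0.861) in innate lymphoid progenitor-gated cells.

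Il2rg (chromosome X, 101264378 to 101268255, minus strand), the common gamma chain, was detected in every type, at 237 ± 11.3 CPM in group 2 innate lymphoid-gated, 203 ± 8.05 CPM in NK-gated, 173 ± 19.6 CPM in T cell-gated and 114 ± 8.80 CPM in innate lymphoid progenitor-gated WT cells. These 4 neighbours in the order did not overlap. None of the 4 gave a call: their log2 fold changes were -0.26, -0.22, -0.07 and 0.01, with adjusted p from 0.0794 to 0.984. Il2rg rose in 4 other types, all with lower WT levels. It went from 17.1, 18.3 and 21.3 CPM to 32.7, 29.7 and 38.1 CPM in granulocyte-monocyte progenitor-gated cells (log2 0.67, SE 0.18, adjusted p = 0.00701). It went from 29.9, 34.3 and 31.7 CPM to 55.9, 43.1 and 46.7 CPM in lymphoid-primed progenitor-gated cells (log2 0.49, SE 0.15, adjusted p = 0.0135). The groups did not overlap in either type, nor in the erythroid-gated (0.40, adjusted p = 0.0131) and monocyte-gated cells (0.60, adjusted p = 0.0467).

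These Il2rg calls were among the least stable. The erythroid call ended without WT 1 (0.34, adjusted p = 0.0534) and turned to -0.25 (adjusted p = 0.654) with equal cell numbers per cluster, where 1 cluster held 75.1% ± 1.12 of the WT and 2.83% ± 1.30 of the Txnip-KO erythroid-gated cells. Another cluster held 3.20% ± 1.13 of the WT and 81.6% ± 2.40 of the Txnip-KO cells. The setting thus kept few cells of either group's main cluster. The monocyte call ended when any 1 of the 6 samples was left out (0.49 to 0.69), and the lymphoid-primed call ended without WT 1 (0.44) or Txnip-KO 1 (0.41). No low-count filter (0.56), clusters in place of gates (0.36), equal cell numbers per cluster (0.52) and DESeq2's Wald test (0.60, adjusted p = 0.190) also ended the monocyte call. DESeq2's Wald test ended the granulocyte-monocyte progenitor (0.67, adjusted p = 0.0506) and lymphoid-primed calls (0.50, adjusted p = 0.0690), and the gate on thinned cells ended the lymphoid-primed (0.34) and erythroid calls (0.37). A UMI of both chains of a pair was counted after thinning each cell to 2000 UMIs. Both Il2rb and Il2rg were found in 25.3% ± 1.85 of NK-gated cells in WT and 24.7% ± 2.95 in Txnip-KO, and 33.7% ± 1.26 and 33.7% ± 6.12 of group 2 innate lymphoid-gated cells had both Il7r and Il2rg.

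Il18r1, the IL-18-binding chain, and Il18rap, its accessory chain, are neighbours on chromosome 1, at 40465552 to 40500854 and 40515362 to 40551705, both on the plus strand and 14507 bases apart. The 150 bases before the RefSeq start of each (GRCm38.p6, plus strand, chr1:40465402-40465551 and chr1:40515212-40515361) are shown because the pair changed together in several types, with matches to an ETS core motif (AGGAAG or CGGAAG, either strand) in capitals.
Il18r1: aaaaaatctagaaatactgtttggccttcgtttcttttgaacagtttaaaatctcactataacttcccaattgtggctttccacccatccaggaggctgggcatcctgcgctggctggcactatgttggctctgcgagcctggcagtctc
Il18rap: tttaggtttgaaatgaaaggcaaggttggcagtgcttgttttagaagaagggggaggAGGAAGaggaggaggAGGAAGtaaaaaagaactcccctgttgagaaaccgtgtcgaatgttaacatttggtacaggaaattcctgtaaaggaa
The Il18rap window held the ETS letters at 93 and 78 bases before the start, and the Il18r1 window held none. Of 27025 windows of the same length, 28.01% held an ETS match. Neither window held the GATA letters (AGATAA or TGATAA, in 9.91% of windows), the RUNX letters (TGTGGT, 8.53%) or the FOX letters (TGTTTA, 6.81%), each searched on both strands. The RefSeq table held 6 of the 9 receptors, and 4 of these windows lay outside the gene models of GENCODE release M21.

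NK-gated and basophil or mast-gated WT cells were among the 3 highest types for both IL-18 receptor chains. Il18r1 stood at 288 ± 7.97 CPM in group 2 innate lymphoid-gated, 261 ± 1.52 CPM in NK-gated and 240 ± 36.7 CPM in basophil or mast-gated cells (SD, n = 3), of which the last pair overlapped. Il18rap stood at 426 ± 29.7 CPM in basophil or mast-gated, 226 ± 3.13 CPM in NK-gated and 158 ± 39.4 CPM in neutrophil-gated cells, with no overlap between neighbours among these. A UMI of both chains was found in 24.5% ± 1.53 of WT basophil or mast-gated and 15.9% ± 0.493 of WT NK-gated cells thinned to 2000 UMIs, and in 0% of erythroid-gated cells. Cells with fewer than 2000 UMIs were left out. The median WT depth was 2268 UMIs in basophil or mast-gated and 4376 in NK-gated cells, so the former share rests on the deeper part of its gate.

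In NK-gated, T cell-gated and group 2 innate lymphoid-gated cells both chains were called higher in Txnip-KO. In NK-gated cells Il18r1 stood at 262, 260 and 263 CPM in WT, against 435, 404 and 425 CPM in Txnip-KO (log2 0.53, SE 0.08, adjusted p = 0.000349). Il18rap in the same cells stood at 229, 223 and 228 CPM in WT, against 439, 351 and 357 CPM in Txnip-KO (log2 0.59, SE 0.09, adjusted p = 0.000353). The share of NK-gated cells with both chains was 28.4% ± 3.39 in Txnip-KO. In T cell-gated cells Il18r1 went from 140, 110 and 120 CPM to 252, 266 and 294 CPM (log2 1.15, SE 0.17, adjusted p = 0.00221), and Il18rap from 124, 100.3 and 81.1 CPM to 226, 211 and 172 CPM (log2 1.01, SE 0.20, adjusted p = 0.0128). No group overlapped another in these 4 comparisons. In T cell-gated cells the 10 NK markers, none of them at 0, summed to 13154 ± 4158 CPM in WT and 15328 ± 1089 CPM in Txnip-KO, whose part in these values was not tested.

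In group 2 innate lymphoid-gated cells Il18r1 went from 293, 292 and 279 CPM to 594, 502 and 491 CPM (log2 0.80, SE 0.13, adjusted p = 0.00068), and Il18rap from 85.9, 55.8 and 58.7 CPM to 99.6, 136 and 129 CPM (log2 0.82, SE 0.21, adjusted p = 0.0271). In innate lymphoid progenitor-gated cells Il18r1 went from 109, 230 and 181 CPM to 343, 371 and 298 CPM (log2 0.94, SE 0.19, adjusted p = 0.0108), while Il18rap, at 11.8 ± 3.99 and 30.7 ± 3.96 CPM, did not pass the test (1.37, adjusted p = 0.0847). Again no Txnip-KO sample lay within the WT range.

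Both chains also rose in types where they were low. In plasmacytoid dendritic-gated cells Il18rap went from 14.8, 7.15 and 10.4 CPM to 30.4, 44.8 and 36.7 CPM (log2 1.77, SE 0.23, adjusted p = 0.000102), its largest called change, and Il18r1 from 7.56, 6.43 and 6.21 CPM to 7.25, 18.4 and 16.9 CPM (log2 1.07, SE 0.30, adjusted p = 0.0138), where Txnip-KO 1 lay within the WT range. In this gate a cluster named lymphoid-primed progenitor held 11.5% ± 0.948 of the WT and 25.0% ± 9.53 of the Txnip-KO cells. With equal cell numbers per cluster the Il18rap value was 1.58 (adjusted p = 0.000611), and the Il18r1 call ended (0.73, adjusted p = 0.204). In lymphoid-primed progenitor-gated cells Il18r1 went from 4.64, 14.97 and 14.4 CPM to 39.5, 20.2 and 41.4 CPM (log2 1.41, SE 0.29, adjusted p = 0.000897) and Il18rap from 48.9, 39.8 and 49.0 CPM to 101, 67.4 and 69.2 CPM (log2 0.66, SE 0.15, adjusted p = 0.00155). Il18rap was called in conventional dendritic-gated cells too (1.20, SE 0.34, adjusted p = 0.0399), from 10.4 ± 3.18 to 24.5 ± 4.81 CPM. The lowest WT sample there stood at 6.81 CPM, and the WT samples alone were too low for the low-count filter. Il18rap could be tested in this type only through the Txnip-KO samples, in which it was higher.

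Basophil or mast-gated cells went the other way. Il18r1 stood at 240, 203 and 277 CPM in WT, against 225, 125 and 80.4 CPM in Txnip-KO (log2 -0.79, SE 0.25, adjusted p = 0.0399), with Txnip-KO 1 inside the WT range. Il18rap stood at 450.5, 393 and 435 CPM in WT, against 530.0, 236 and 157 CPM in Txnip-KO, and did not pass the test (-0.53, SE 0.29, adjusted p = 0.208). Txnip-KO 1 was thus above every WT sample for Il18rap while Txnip-KO 2 and 3 were below. The Il18r1 call ended under 11 of 18 alternatives, among them without WT 1, WT 2, WT 3, Txnip-KO 2 or Txnip-KO 3 (-0.90 to -0.50), and without Txnip-KO 1 the value was -1.31. It also ended in cells thinned to 1000 UMIs (-0.13, adjusted p = 0.726) and with equal cell numbers per cluster (-0.37, adjusted p = 0.102).

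The difference between types was tested directly for 18 pairs, each member's highest type against the types ranked next. The Il18r1 effect in basophil or mast-gated cells was 1.66 lower on the log2 scale than in group 2 innate lymphoid-gated cells (difference -1.66, SE 0.20, adjusted p = 2.81e-07, where 4.95% of all genes were called). The Il18rap effect was 1.28 higher in NK-gated than in basophil or mast-gated cells (SE 0.22, adjusted p = 0.000372, 11.3% of all genes). Both differences kept their call but changed in size. With equal cell numbers per cluster they were -1.02 and 0.57, the first was -2.59 with the gate on thinned cells, and the second was 0.73 in cells thinned to 1000 UMIs and 1.99 with stricter cells. For Il18r1 no difference was called between NK-gated and group 2 innate lymphoid-gated cells (-0.21, SE 0.12, adjusted p = 0.752).

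For the IL-18 receptor chains, the calls of Il18r1 and Il18rap in NK-gated cells, of Il18r1 in group 2 innate lymphoid-gated cells and of Il18rap in plasmacytoid dendritic-gated cells held under all alternatives run. Single samples ended 6 others. For Il18rap these were T cell-gated cells (without WT 3, Txnip-KO 1 or Txnip-KO 2, 0.88 to 0.99), conventional dendritic-gated cells (without WT 2, WT 3, Txnip-KO 1 or Txnip-KO 2, 0.94 to 1.31) and group 2 innate lymphoid-gated cells (without WT 2, WT 3, Txnip-KO 2 or Txnip-KO 3, 0.71 to 0.79). For Il18r1, beside the fall above, they were innate lymphoid progenitor-gated (without WT 1, 0.67, or Txnip-KO 2, 0.85) and plasmacytoid dendritic-gated cells (without WT 2, WT 3, Txnip-KO 2 or Txnip-KO 3, 0.87 to 1.04). With equal cell numbers per cluster the Il18rap value was 0.52 (adjusted p = 0.259) in T cell-gated and 0.43 (adjusted p = 0.434) in group 2 innate lymphoid-gated cells. In NK-gated cells, whose clusters shifted as given above, the same setting gave 0.49 for Il18r1 (adjusted p = 0.000462) and 0.40 for Il18rap (adjusted p = 0.00415). The lymphoid-primed call of Il18r1 ended in DESeq2's Wald test (1.46, adjusted p = 0.0540), and its value was 0.72 with clusters in place of gates. Cells thinned to 1000 UMIs ended the lymphoid-primed call of Il18rap (0.84, adjusted p = 0.0808) and the T cell call of Il18r1 (0.999, adjusted p = 0.142).

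**Figure D3:**
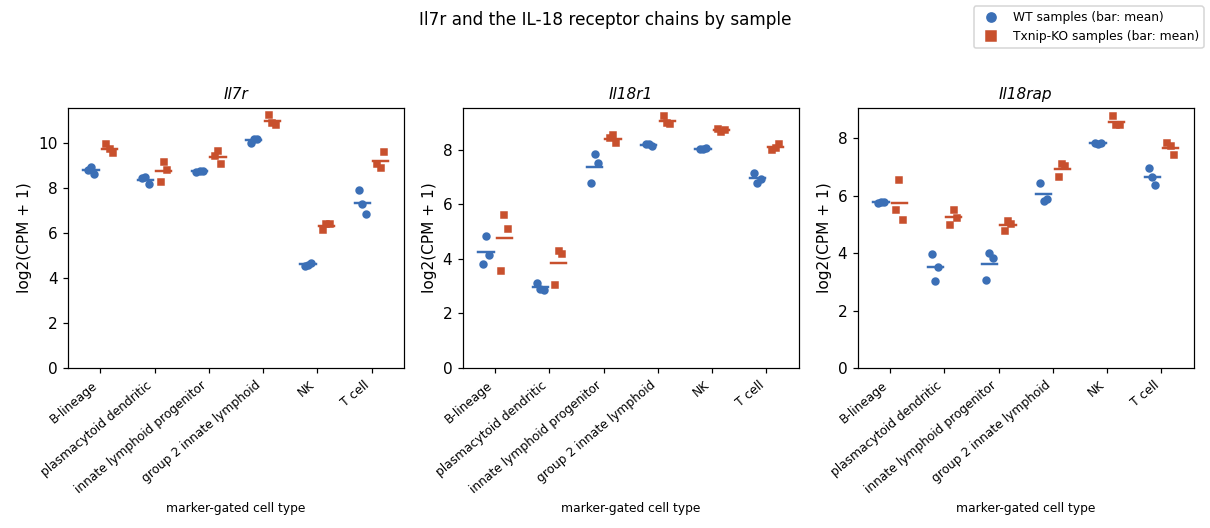
Points are single samples (blue circles WT, orange squares Txnip-KO, n = 3 each), bars are means of log2(CPM + 1), in 6 marker-gated types. For all 3 genes the Txnip-KO samples of NK-gated and T cell-gated cells lie above every WT sample, while in plasmacytoid dendritic-gated cells Il7r overlaps (284 to 352 CPM in WT, 310 to 564 CPM in Txnip-KO).

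Kit (chromosome 5, 75574916 to 75656722, plus strand), the receptor for stem cell factor, was highest in WT HSC-gated cells at 258 ± 11.2 CPM, then in erythroid-gated cells at 210 ± 22.1 CPM, granulocyte-monocyte progenitor-gated cells at 176 ± 3.53 CPM and megakaryocyte-gated cells at 132 ± 5.64 CPM (SD, n = 3). The first 4 did not overlap one another, while innate lymphoid progenitor-gated and lymphoid-primed progenitor-gated cells, at 118 ± 31.0 and 105 ± 6.56 CPM, overlapped with their neighbours. In mature lymphoid types Kit was low, at 20.3 ± 7.84 CPM in NK-gated cells.

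Kit was higher in Txnip-KO over all kept cells, at 134, 133 and 112 CPM in WT and 229, 224 and 196 CPM in Txnip-KO (log2 0.68, SE 0.09, adjusted p = 0.00162). It was 1 of 2 members called over all kept cells, where 41.1% of all genes were called. The rise was also present within each type at the top of the Kit order. HSC-gated cells went from 270, 252 and 250.3 CPM to 356, 324 and 324 CPM (log2 0.30, SE 0.08, adjusted p = 0.0136). Erythroid-gated cells went from 227, 219 and 185 CPM to 354, 301 and 281 CPM (log2 0.57, SE 0.09, adjusted p = 0.000839). Megakaryocyte-gated cells went from 126, 136 and 134 CPM to 230.5, 218 and 205 CPM (log2 0.67, SE 0.09, adjusted p = 0.000109), and the groups did not overlap in any of these. Lymphoid-primed progenitor-gated cells rose from 105 ± 6.56 to 147 ± 8.34 CPM (log2 0.41, adjusted p = 0.00559) and granulocyte-monocyte progenitor-gated cells from 176 ± 3.53 to 234 ± 31.8 CPM (log2 0.26, adjusted p = 0.0499).

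The largest Kit change was in basophil or mast-gated cells, where WT samples stood at 50.7, 46.5 and 45.8 CPM and Txnip-KO samples at 152, 193 and 220.3 CPM (log2 1.90, SE 0.16, adjusted p = 9.77e-06). A Kit UMI was found in 4.36% ± 0.168 of WT and 23.0% ± 10.7 of Txnip-KO cells of this gate thinned to 2000 UMIs (6.43% ± 0.556 and 25.2% ± 10.6 unthinned, median depths 2268 and 2360 UMIs), against 2.97% ± 1.43 and 2.51% ± 0.220 of NK-gated cells. In the same gate the 8 basophil and mast cell markers, all detected, summed to 36093 ± 4157 CPM in WT and 14213 ± 4915 CPM in Txnip-KO. The basophil protease genes Mcpt8 and Prss34 stood at 13722 ± 1641 and 15481 ± 2139 CPM in WT and at 3134 ± 1127 and 6115 ± 2709 CPM in Txnip-KO, while Gata2 stood at 1329 ± 53.6 and 1201 ± 246 CPM. Among other markers of the list, Fcer1a stood at 841 ± 109 CPM in WT and 323 ± 165 CPM in Txnip-KO. Cpa3 stood at 2226 ± 298 and 1547 ± 311 CPM, and Ms4a2 at 1153 ± 35.0 and 1004 ± 227 CPM. With equal cell numbers per cluster within the gate the Kit change was 0.82 (adjusted p = 0.00071), and the gate held 11.5% ± 0.868 of all WT and 5.28% ± 3.46 of all Txnip-KO cells kept. In plasmacytoid dendritic-gated cells Kit was called at a low level, from 11.8 ± 3.83 to 23.4 ± 9.61 CPM (log2 0.92, adjusted p = 0.0266), with overlapping groups. With equal cell numbers per cluster that value was 0.95 (adjusted p = 0.0484).

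The basophil or mast call of Kit held under all 18 alternatives. The HSC call ended without WT 2 (0.28, adjusted p = 0.0872), the granulocyte-monocyte progenitor call without WT 1, WT 2, WT 3, Txnip-KO 1 or Txnip-KO 2 (0.17 to 0.27), and the plasmacytoid dendritic call without WT 1, WT 2, Txnip-KO 2 or Txnip-KO 3 (0.73 to 0.84). The erythroid call ended with equal cell numbers per cluster (0.39, adjusted p = 0.152), which in this gate kept few cells of either group's main cluster. In lymphoid-primed progenitor-gated cells the call ended with the gate on thinned cells (0.25, adjusted p = 0.241) and with equal cell numbers per cluster (0.33, adjusted p = 0.0503), and the value was 0.73 in cells thinned to 1000 UMIs. Thinned cells ended the HSC (0.32), erythroid (0.30) and megakaryocyte calls (0.50), with adjusted p from 0.1202 to 0.198, and the gate on thinned cells ended the HSC call as well (0.30). The granulocyte-monocyte progenitor call ended under 12 alternatives in all and was 0.11 with equal cell numbers per cluster. A difference of 0.31 between the erythroid and HSC effects was called (SE 0.07, adjusted p = 0.010, 5.62% of all genes), but ended without WT 3 (0.21) or Txnip-KO 1 (0.23) and was -0.053 in cells thinned to 1000 UMIs and 0.096 with equal cell numbers per cluster.

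Flt3 (chromosome 5, 147330741 to 147400489, minus strand), the receptor for FLT3 ligand, was highest in WT lymphoid-primed progenitor-gated cells at 297 ± 4.62 CPM, followed by B-lineage-gated cells at 218 ± 4.82, plasmacytoid dendritic-gated cells at 178 ± 5.38, conventional dendritic-gated cells at 135 ± 7.04 and HSC-gated cells at 92.2 ± 3.77 CPM (SD, n = 3), with no overlap between any neighbours. Flt3 was called higher in 8 of the 13 types tested and lower in none, where 20.5% of the tests over all genes and types were called. In the basophil or mast-gated and erythroid-gated cells among them, it could be tested only through the Txnip-KO samples, in which it was higher.

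Within progenitors, lymphoid-primed progenitor-gated cells went from 303, 294 and 296 CPM to 469.9, 412 and 366 CPM (log2 0.39, SE 0.09, adjusted p = 0.00353). HSC-gated cells went from 89.5, 90.6 and 96.5 CPM to 188, 136 and 143 CPM (log2 0.68, SE 0.11, adjusted p = 0.00025). Granulocyte-monocyte progenitor-gated cells went from 42.3, 41.0 and 42.2 CPM to 90.8, 71.9 and 83.8 CPM (log2 0.81, SE 0.13, adjusted p = 4.45e-05). The Txnip-KO samples lay above every WT sample in all 3 types. The make-up of these gates differed between the groups. In the HSC gate 1 cluster went from 42.5% ± 1.82 of WT to 56.0% ± 4.46 of Txnip-KO cells. In the granulocyte-monocyte progenitor gate 1 went from 10.9% ± 1.87 to 28.9% ± 6.33. In the lymphoid-primed progenitor gate 1 went from 23.5% ± 1.07 to 34.0% ± 3.81. With equal cell numbers per cluster the Flt3 values were 0.71, 0.75 and 0.36 in that order (adjusted p = 0.00116, 0.00274 and 0.0107). Cells with a UMI of both Kit and Flt3 made up 6.43% ± 1.84 of WT and 11.8% ± 3.02 of Txnip-KO HSC-gated cells, and 7.58% ± 1.31 and 16.3% ± 3.69 of lymphoid-primed progenitor-gated cells, thinned to 2000 UMIs.

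In the dendritic and monocyte types Flt3 rose as well. Plasmacytoid dendritic-gated cells went from 179, 173 and 183 CPM to 289, 302 and 260 CPM (log2 0.59, SE 0.10, adjusted p = 0.000484), and conventional dendritic-gated cells from 127, 137 and 141 CPM to 227, 247 and 225 CPM (log2 0.77, SE 0.13, adjusted p = 0.00202), a gate whose cells lay mostly in monocyte clusters. With equal cell numbers per cluster the plasmacytoid dendritic value was 0.53 (adjusted p = 0.00123). Monocyte-gated cells went from 45.3, 54.9 and 63.5 CPM to 208, 138 and 145 CPM (log2 1.61, SE 0.16, adjusted p = 3.94e-06). No groups overlapped in these 3 types. In monocyte-gated cells thinned to 2000 UMIs a Flt3 UMI was found in 9.27% ± 1.12 of WT and 28.5% ± 4.26 of Txnip-KO cells (30.8% ± 3.78 and 72.2% ± 8.996 unthinned), against 0.0468% ± 0.0810 and 0.404% ± 0.161 of erythroid-gated cells, at median depths of 10173 and 8723 UMIs. Markers of conventional dendritic cells moved with this change in the monocyte gate: 8 of 9 were detected, all but Xcr1, and they summed to 1279 ± 366 CPM in WT and 6071 ± 2034 CPM in Txnip-KO. Their part in the Flt3 change was not tested, and with equal cell numbers per cluster the value was 1.87 (adjusted p = 7.125e-07).

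Flt3 was also called in 2 types where it was low. Basophil or mast-gated cells went from 3.90, 3.25 and 5.89 CPM to 15.2, 12.7 and 17.6 CPM (log2 1.74, SE 0.32, adjusted p = 0.00247), with a value of 0.60 when doublets were kept and 2.995 with the gate on thinned cells. Erythroid-gated cells went from 0.476, 0.570 and 0.632 CPM to 2.99, 1.82 and 3.06 CPM (log2 2.19, SE 0.38, adjusted p = 0.00134), resting on 16 UMIs in WT and 78 in Txnip-KO, and both levels lay below those of NK-gated cells (1.54 ± 1.15 and 3.48 ± 0.867 CPM). In both types the WT samples alone were too low for the low-count filter. Flt3 could be tested there only through the Txnip-KO samples, in which it was higher. B-lineage-gated cells differed between libraries: WT stood at 213, 222 and 219 CPM and Txnip-KO at 90.8, 271 and 133 CPM, with no call (-0.46, SE 0.30, adjusted p = 0.314). The calls in basophil or mast-gated, erythroid-gated, granulocyte-monocyte progenitor-gated, monocyte-gated and plasmacytoid dendritic-gated cells held under all alternatives run. For basophil or mast-gated and for erythroid-gated cells these were 16, without the fit of equal cell numbers per cluster, where Flt3 could not be tested. The calls in the remaining types ended once each, the HSC call with the gate on thinned cells (0.56) and the lymphoid-primed (0.45) and conventional dendritic calls (0.57) in cells thinned to 1000 UMIs. The granulocyte-monocyte progenitor value was 0.45 with clusters in place of gates. Over all kept cells Flt3 stood at 97.2 ± 10.0 CPM in WT and 126 ± 13.4 CPM in Txnip-KO and did not pass the test (0.27, SE 0.10, adjusted p = 0.0619).

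**Figure D4:**
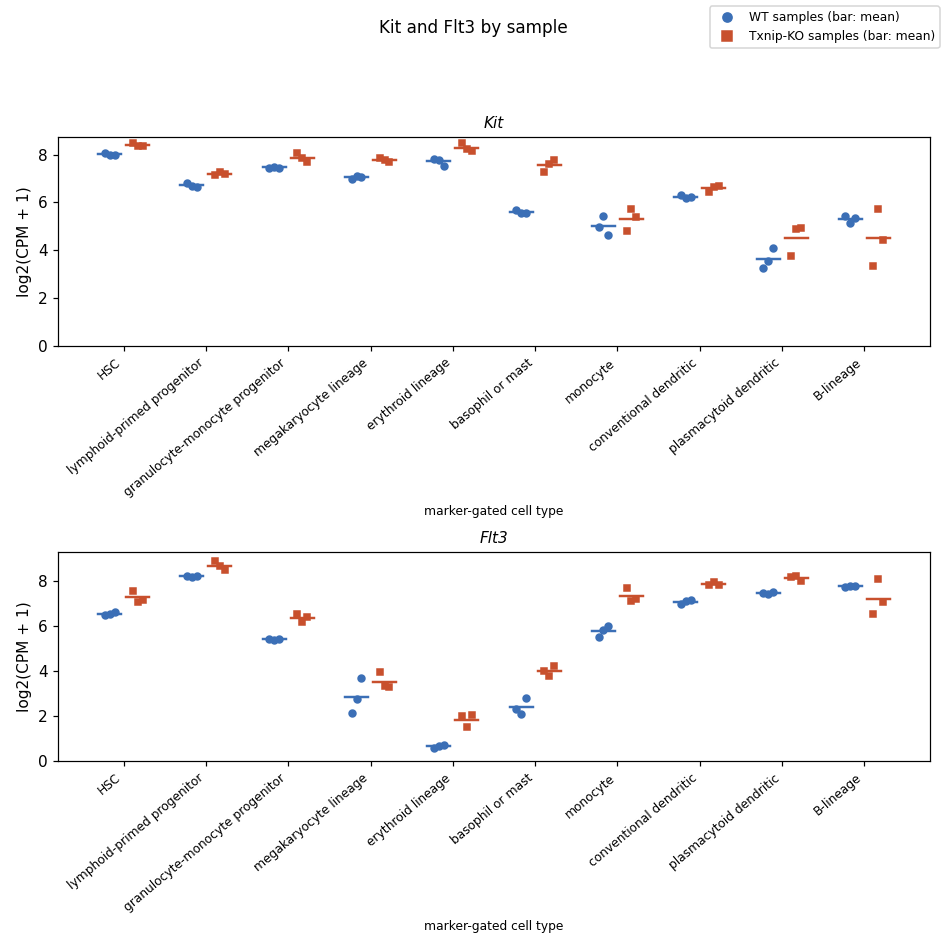
Points are single samples (blue circles WT, orange squares Txnip-KO, n = 3 each) and bars are means of log2(CPM + 1) for Kit and Flt3 in 10 marker-gated types. The Txnip-KO samples lie above all WT samples in HSC-gated, progenitor-gated and basophil or mast-gated cells for both genes, and spread most in B-lineage-gated cells.

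Csf1r (chromosome 18, 61100598 to 61132149, plus strand), the receptor for CSF1 and IL-34, stood at 143 ± 21.1 CPM in WT monocyte-gated cells, 48.04 ± 22.5 CPM in conventional dendritic-gated cells and 19.99 ± 2.33 CPM in granulocyte-monocyte progenitor-gated cells (SD, n = 3), with no overlap between neighbours. Group 2 innate lymphoid-gated cells held no Csf1r UMI in any sample. Over all kept cells it was the only member called lower, from 20.6, 16.7 and 14.8 CPM in WT to 12.4, 9.07 and 12.9 CPM in Txnip-KO (log2 -0.70, SE 0.15, adjusted p = 0.00794). When every sample gave equally many cells of each type, without the cells outside these types, the value was -0.16 (adjusted p = 0.259). Monocyte-gated cells made up 3.28% ± 0.130 of WT and 2.24% ± 0.960 of Txnip-KO cells kept. Within monocyte-gated cells Csf1r stood at 165, 123 and 141 CPM in WT, against 120, 110 and 123 CPM in Txnip-KO and did not pass the test (-0.27, SE 0.12, adjusted p = 0.133), nor did it in conventional dendritic-gated cells (-0.76, SE 0.32, adjusted p = 0.150).

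The single call of Csf1r within a type was a rise in plasmacytoid dendritic-gated cells, from 7.22, 6.43 and 9.42 CPM to 15.9, 23.6 and 19.8 CPM (log2 1.28, SE 0.25, adjusted p = 0.00129). A Csf1r UMI was found in 0.682% ± 0.148 of WT and 3.76% ± 0.389 of Txnip-KO cells of this gate thinned to 2000 UMIs (3.97% ± 0.881 and 9.44% ± 1.08 unthinned, median depths 7314 and 6259 UMIs), against 0% and 0.0231% ± 0.0400 of NK-gated cells. The 8 monocyte markers, all detected in that gate, summed to 1404 ± 45.7 CPM in WT and 1135 ± 234 CPM in Txnip-KO. The call held when each sample was left out, and ended with clusters in place of the marker gate (0.22, adjusted p = 0.749). With equal cell numbers per cluster the value was 1.02 (adjusted p = 0.0362).

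Csf2rb (chromosome 15, 78325752 to 78353847, plus strand), the common beta chain, has a near-identical neighbour, Csf2rb2, an IL-3-specific beta chain 20030 bases away on the minus strand, and reads of the pair may be split or lost between them. In WT cells Csf2rb stood at 806 ± 68.5 CPM in basophil or mast-gated cells, 98.3 ± 11.8 CPM in plasmacytoid dendritic-gated cells and 64.3 ± 12.9 CPM in monocyte-gated cells (SD, n = 3), with no overlap between neighbours. NK-gated cells held 1.26 ± 0.768 CPM.

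In basophil or mast-gated cells Csf2rb fell from 775, 758 and 885 CPM in WT to 621, 367 and 273 CPM in Txnip-KO (log2 -1.01, SE 0.21, adjusted p = 0.00512). Csf2rb2 in the same cells stood at 278, 285 and 342 CPM in WT, against 210, 133 and 126 CPM in Txnip-KO, a called change of -1.01 (adjusted p = 0.00165). For both genes all Txnip-KO samples lay below all WT samples, and Txnip-KO 1 lay nearest to WT. The Csf2rb call held under all 18 alternatives, with values from -1.42 to -0.78 when 1 sample was left out and -0.56 (adjusted p = 0.00168) with equal cell numbers per cluster, and it was -0.57 in cells thinned to 1000 UMIs. Other genes of the gate changed too: the marker sum and the Kit level given above moved with it, and their part was not tested.

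**Figure D5:**
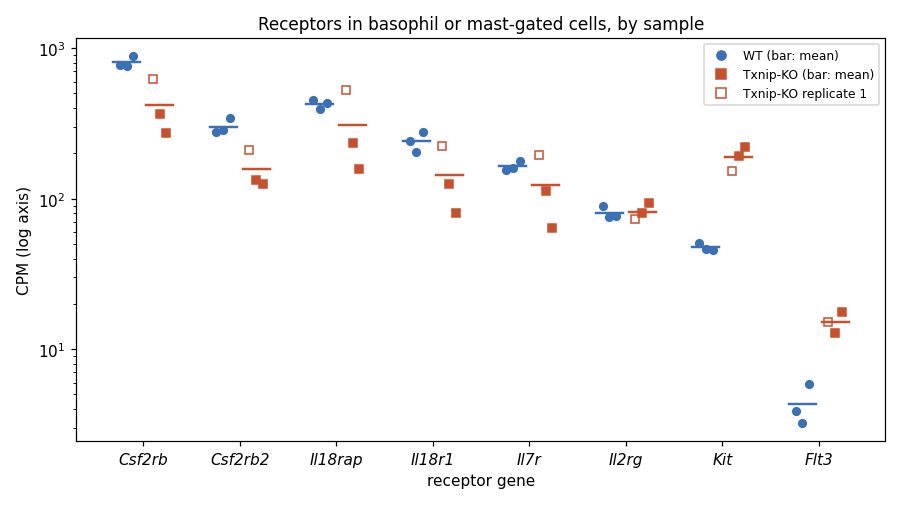
Points are single samples on a log axis of CPM (blue circles WT, orange squares Txnip-KO, open square Txnip-KO 1) and bars are means for receptor genes in basophil or mast-gated cells. Csf2rb and Csf2rb2 lie lower and Kit and Flt3 higher in every Txnip-KO sample, whereas Txnip-KO 1 lies within or above the WT range for Il18rap, Il18r1 and Il7r.

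In progenitors Csf2rb was called in the other direction, at low levels. HSC-gated cells went from 11.3, 16.5 and 11.1 CPM to 25.5, 20.2 and 22.3 CPM (log2 0.72, SE 0.19, adjusted p = 0.00787), granulocyte-monocyte progenitor-gated cells from 24.8 ± 0.377 to 40.1 ± 8.36 CPM (log2 0.50, adjusted p = 0.0273) and megakaryocyte-gated cells from 4.05 ± 0.456 to 7.75 ± 2.301 CPM (log2 0.87, adjusted p = 0.0375). The groups did not overlap in these 3 types. The HSC call ended without WT 1 (0.60, adjusted p = 0.0552), and with clusters in place of gates (0.43, adjusted p = 0.122), and its value was 1.42 with the gate on thinned cells. The granulocyte-monocyte progenitor call ended without WT 1, WT 2, WT 3, Txnip-KO 1 or Txnip-KO 3 (0.36 to 0.51), and the megakaryocyte call without WT 1, WT 2, WT 3 or Txnip-KO 1 (0.61 to 0.96). DESeq2's Wald test ended both calls too (0.52, adjusted p = 0.116, and 0.87, adjusted p = 0.138). Stricter cells (0.50) and the gate on thinned cells (0.34) ended the former, and a stricter gate (0.84) and equal cell numbers per cluster (0.80) the latter. Plasmacytoid dendritic-gated and monocyte-gated cells, next in the Csf2rb order, had values of -0.06 (SE 0.17, adjusted p = 0.828) and 0.03 (SE 0.16, adjusted p = 0.901). The effect was higher than in basophil or mast-gated cells by 1.06 in plasmacytoid dendritic-gated cells (SE 0.16, adjusted p = 0.000154, 11.6% of all genes) and by 1.12 in monocyte-gated cells (SE 0.19, adjusted p = 0.000116, 12.9% of all genes), and both differences ended in cells thinned to 1000 UMIs (0.65 and 0.13). With equal cell numbers per cluster they were 0.64 and 0.71.

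For each receptor, the genes named are among the 3 with the most similar order of types, those with the highest Pearson correlation of log2(CPM + 1) across the 15 WT type means, among 10521 genes. The points share their libraries and their depth, and the values are a description. Il2rb was closest to Txk, Klrb1a and Cd160 (0.98, 0.97 and 0.97), genes known from NK cells. Il18r1 was closest to Ets1, Ube2h and Rab19 (0.96, 0.96 and 0.95), Il18rap to Arhgap25, Arhgap4 and Cracr2a (0.92, 0.90 and 0.88), Il7r to Cd37, Rtf2 and St6gal1 (0.91, 0.87 and 0.87), and Il2rg to Camk2b, Irf2bpl and Il12rb1 (0.94 each). Among the kinases, Flt3 was closest to Bex6, Fam110a and Tspan2 (0.96, 0.95 and 0.94), Kit to Krt18 and Spns2 (0.93 and 0.90) and Csf1r to Hexa, Nostrin and Lmo1 (0.91, 0.90 and 0.89). Csf2rb was closest to Rhbdf2, to its neighbour Csf2rb2 and to Atp6v0b (0.91, 0.90 and 0.88).

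Other genes of these pathways were followed in 8 lists over all kept cells, where 41.1% of all genes were called and the median log2 fold change of all genes was 0.037. The 11 genes listed as partner receptor chains include Il18bp, a binding protein of IL-18 and not a receptor chain. Of the 11, 1 was called higher and 3 lower (median -0.12). The IL-15 receptor alpha chain Il15ra rose by 0.71 (7.01 ± 0.334 to 12.3 ± 0.610 CPM, adjusted p = 0.00124). The IL-21 receptor Il21r (-1.04, adjusted p = 0.00127), Csf2rb2 (-1.16, adjusted p = 0.00752) and the IL-3 receptor alpha chain Il3ra (-0.39, adjusted p = 0.0315) fell. In basophil or mast-gated cells 3 of 7 tested genes of that list were called (19.1% of all genes), all lower. They were Csf2rb2, Il3ra (-0.81) and Crlf2 (-0.81), the TSLP receptor chain that pairs with Il7r, named here after its values were seen. Of 23 other cytokine and growth factor receptors 11 were higher and 1 lower (median 0.36), among them Pdgfrb (0.80, adjusted p = 0.00129), the insulin receptor Insr (0.79, adjusted p = 0.00142), the IGF-1 receptor Igf1r (0.67, adjusted p = 0.00203) and the interferon-gamma receptor chain Ifngr1 (0.78, adjusted p = 0.0028), which went from 162 ± 10.7 to 299 ± 53.5 CPM.

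Of 10 tested ligands of the members, 2 were higher and 2 lower (median 0.18), all at low levels. Kitl went from 0.521 ± 0.375 to 3.28 ± 0.341 CPM (2.56, adjusted p = 0.00551) and Il34 from 0.0784 ± 0.0684 to 0.664 ± 0.183 CPM (2.97, adjusted p = 0.0074), while Csf2 (-1.57, adjusted p = 0.0185) and Il2 (-0.60, adjusted p = 0.028) fell. Cells gated as stromal or endothelial made up 0.0603% ± 0.0396 of kept cells in WT (5, 6 and 1 cells) and 0.230% ± 0.0843 in Txnip-KO (8, 21 and 22 cells), whose part in the Kitl and Il34 values was not tested. Of 11 JAK and STAT genes 4 were higher and 1 lower (median 0.17): Stat5b (0.47, adjusted p = 0.00355), Stat5a (0.40, adjusted p = 0.00425) and Stat3 (0.55, adjusted p = 0.00651) were among those that rose. Of 15 targets and feedback genes of that pathway 4 were higher and 0 lower (median 0.033), with Socs5, Socs3, Socs2 and Pim1 rising by 0.41, 1.06, 0.49 and 0.46 (adjusted p from 0.00531 to 0.0274).

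Downstream of the kinases, 5 of 19 adaptors were higher and 3 lower (median 0.098), among them Pik3r1 (0.44, adjusted p = 0.0056), Grb2 (-0.35, adjusted p = 0.00398) and Map2k1 (-0.38, adjusted p = 0.00499). Of 15 genes known to restrain them, 5 were higher and 4 lower (median 0.10), with Nf1 rising (0.54, adjusted p = 0.00202) and the phosphatase Ptpn6 (-0.62, adjusted p = 0.0019), Dok2 (-0.44, adjusted p = 0.00227) and Spry2 (-0.56, adjusted p = 0.00381) falling. Of 13 IL-18 signalling genes 2 were higher and 0 lower (median 0.14): Tab2 (0.36, adjusted p = 0.00801) and the kinase Irak2 (0.55, adjusted p = 0.0153). These values over all kept cells also carry the differences in cell type shares between the groups given above.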

How the data were processed

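Sorted bone marrow of 3 WT and 3 Txnip-KO samples was profiled with droplet 3' RNA sequencing, and groups and replicate numbers came from the sample titles. The deposited values are raw UMI counts per gene and barcode, which the authors obtained from Cell Ranger (version 6.1.1). The submitters' processing notes give that version and list Seurat 2.3.4 and CASAVA 1.8 as well. For the build of the genome, nothing is given in the sources used here, and positions are from GENCODE M21 (GRCm38), matched by identifier.

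Kept barcodes had at least 500 genes and 1000 UMIs and at most 10% mitochondrial UMIs. Scrublet scores (scanpy 1.11.5) removed 2886 barcodes as doublets, 0.8% per 1000 barcodes, where its own threshold would have marked 1394. Cells were gated with 155 markers in 19 lists: each detected marker counted by the -log10 of its share of cells, and a cell took the list with the highest sum if it had at least 3 markers, a sum of at least 2 and a lead of at least 1, limits set after seeing the data. Leiden clusters (leidenalg 0.10.2, resolution 1) were made without the receptors. For shares of cells with a UMI, cells were thinned to 2000 UMIs, which left out 2201 shallower cells.

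Counts summed per sample and type were tested with edgeR 4.0.16 (R 4.3.3): genes were filtered by filterByExpr, libraries scaled by TMM and genes tested by quasi-likelihood, with p-values adjusted after Benjamini and Hochberg across the genes tested. Differences between types used the interaction of type and genotype. The printed CPM are scaled by total UMIs. The scripts were tested on simulated data. The members, lists and tests were chosen with earlier results of these data known. Named were all 9 members, up to 4 called genes of each list by smallest p, the 3 most similar genes per member, and Txnip. Some genes that this rule names are not reported here. Alternatives were the Wald test and the size factors of DESeq2 (1.42.0), no low-count filter, each sample left out, doublets kept, stricter cells (1000 genes, 2000 UMIs, 5% mitochondrial), cells thinned to 1000 UMIs, other gates, clusters, equal cell numbers per type and a replicate block. Equal cell numbers per cluster and scaling by total UMIs were added after seeing the data.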

Additional observations from a re-analysis of the deposited data

Results flagged for a closer look

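Txnip-KO effects on 4 receptors differed between cell types by a test of the difference itself, in 6 of 18 contrasts, and 5 of these 6 involve basophil or mast-gated cells. These 5 were all the contrasts that included that gate, as set by the WT order. The contrasts of Il18rap share 1 set of basophil or mast-gated values, as do those of Csf2rb, so they are not separate results. Over all contrasts 3.78% of the tests on all genes were called. The Il18r1 effect was lower by 1.66 in basophil or mast-gated than in group 2 innate lymphoid-gated cells (-1.66, from 0.80 in the latter to -0.79 in the former). The Il18rap effect was higher by 1.28 in NK-gated than in basophil or mast-gated cells. It was also higher by 1.21 in neutrophil-gated than in basophil or mast-gated cells (adjusted p = 0.0493, where 1.04% of all genes were called), a difference that ended under 10 of 15 alternatives, among them without WT 1, WT 3, Txnip-KO 2 or Txnip-KO 3 (0.83 to 1.23). The Csf2rb effect was higher by 1.06 in plasmacytoid dendritic-gated and by 1.12 in monocyte-gated than in basophil or mast-gated cells. The Kit effect was higher by 0.31 in erythroid-gated than in HSC-gated cells. In basophil or mast-gated cells Txnip-KO 1 held 558 cells of the gate, against 270 and 239 in Txnip-KO 2 and 3.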

How the results depend on the processing

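Over all kept cells 2 receptors were called, and 2 to 3 when each sample was left out. The count was 4 with scaling by total UMIs, 4 with stricter cells, 4 with cells thinned to 1000 UMIs and 5 with equal cells per type. Fitted with the replicate block, 5 receptors were called over all kept cells and 46 pairs within types; same-numbered samples deviated together only weakly (correlations of 0.068 to 0.10 over all kept cells), so the numbers were not taken as pairs. Within types 42 pairs were called, 30 to 39 when each sample was left out, 32 with the DESeq2 Wald test, 56 with doublets kept, 28 with equal cells per cluster (27 of them among the 42, of which 39 could be tested there) and 15 with cells thinned to 1000 UMIs, where 27 of the 42 pairs could still be tested. The same 14 pairs were called under all alternatives in which they were tested. Differences between types numbered 6, 4 to 7 with 1 sample left out, and 2 in thinned cells. Reversed values were Il2rg over all kept cells with equal cells per type (-0.018, from 0.14), Il2rg in erythroid-gated cells with equal cells per cluster (-0.25), Il7r over all kept cells in thinned cells (0.12) and with equal cells per type (0.57), and the Kit difference between erythroid-gated and HSC-gated cells in thinned cells (-0.053). The causes of these changes were not tested. Scaling by total UMIs shifted the median of all genes by 0.16 in NK-gated, 0.15 in granulocyte-monocyte progenitor-gated, 0.10 in all kept cells and -0.11 in neutrophil-gated cells. It ended 1 of the 42 calls, Il18r1 in basophil or mast-gated cells (-0.70, adjusted p = 0.0693). Of 36 WT levels recomputed with other gates or with doublets kept, 16 moved by more than the SD between samples, among them Csf2rb in basophil or mast-gated cells (388 CPM with the gate on thinned cells). Of 135 pairs, 39 had too few counts to test.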
